A study of Mus musculus with 9 samples.

Results

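The 10 genes described here serve the recognition and uptake of dying cells: the TAM receptor tyrosine kinases Tyro3, Axl and Mertk, their ligand Gas6, the bridging protein Mfge8, and the cytoplasmic engulfment proteins Gulp1, Elmo1, Elmo2, Elmo3 and Dock1. They were chosen by name, and every probe set annotated to a single gene of the list was taken, which gave 19 of the 45037 probe sets analysed. All 10 had at least 1 probe set with a detectable signal, among 16180 genes for which this was so. Expression was measured in whole testes of 5 Tmem203 null and 4 wild-type (WT) samples, 1 array each, from untreated mice aged 24 weeks on the C57BL/6J background. Tmem203 encodes a multi-pass membrane protein of the endoplasmic reticulum. The null allele is carried in every cell of the animal, and in it a vector remnant with a single FRT site replaces the start codon. The methods describe left and right testes as harvested individually, and another passage of the study speaks of the arrays as a set of mice. Neither states that each sample came from its own animal, so the spread on which each p-value rests is that between samples and may in part be technical.

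A developing spermatid sheds most of its cytoplasm as a residual body when it leaves the seminiferous epithelium, and many germ cells die on the way. Sertoli cells, the somatic cells of the tubule, engulf both. Dying cells expose phosphatidylserine, which bridging proteins such as Gas6, protein S and Mfge8 link to TAM receptors and integrins on the phagocyte. Inside it, Elmo proteins pair with Dock proteins to activate the GTPase Rac, which drives the membrane around its target. Mice that lack the whole TAM family lose their germ cells, and in mouse testis Elmo1 has been shown to serve the uptake of dying germ cells by Sertoli cells.

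Each value is a log2 signal by Robust Multichip Average (RMA), so that a difference of 1 is a doubling of the signal. A probe set counted as detected if 1 or more arrays read it at 5 or above on that scale. The arrays correlated with each other between 0.993 and 0.998. Tmem203 itself averaged 9.11 ± 0.03 in null and 9.81 ± 0.13 in WT samples (SD, n = 5 and 4), and all null samples lay below all WT samples. The sources used here do not say whether its probe set lies in the replaced stretch, so this level checks the labels only in part. The 3′ minus 5′ signal of the Gapdh control probe sets, a measure of RNA integrity and labelling, averaged 0.85 ± 0.04 in null and 0.93 ± 0.01 in WT samples (exact permutation test, two-sided, p = 0.0238), while that of Actb differed by -0.03 (exact permutation p = 0.341). Its part in the results was not tested.

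In null testes 5 of the 10 genes were higher, each by less than 1.5-fold. These were the receptors Axl and Mertk, the bridging protein Mfge8, and the adaptor pair Elmo1 and Dock1. Elmo3 was lower in null by 1.93-fold, and Tyro3, Gas6, Gulp1 and Elmo2 did not pass the test. A gene was read here by its detected probe set with the highest mean signal, and a call is an adjusted p under 0.05 from limma over all probe sets. Among all genes read in this way, 6.5% were called higher and 5.32% lower. The median log2 fold change, null minus WT, was 0.28 over the 10 genes and -0.02 over all 16180. In whole testis, fewer cells of a type and less RNA per cell cannot be told apart.

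Counted by probe set, 14 of the 19 were detected. Of these, 6 were higher in null, against 5.7% of the 29238 detected single-gene probe sets, and 1 was lower, against 4.23%. The other 7 did not pass. Elmo3 alone also reached the 1.5-fold threshold of the methods, which 0.722% of those probe sets passed in the lower direction. All 5 null samples lay above all 4 WT samples in the same 6 probe sets, a pattern found in 7.82% of detected probe sets, and below them in Elmo3, as in 7.76%. In the remaining 7 the groups overlapped. The 5 probe sets not detected were a second probe set each of Axl, Gas6 and Dock1 and a pair of Gulp1.

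**Figure D1:**
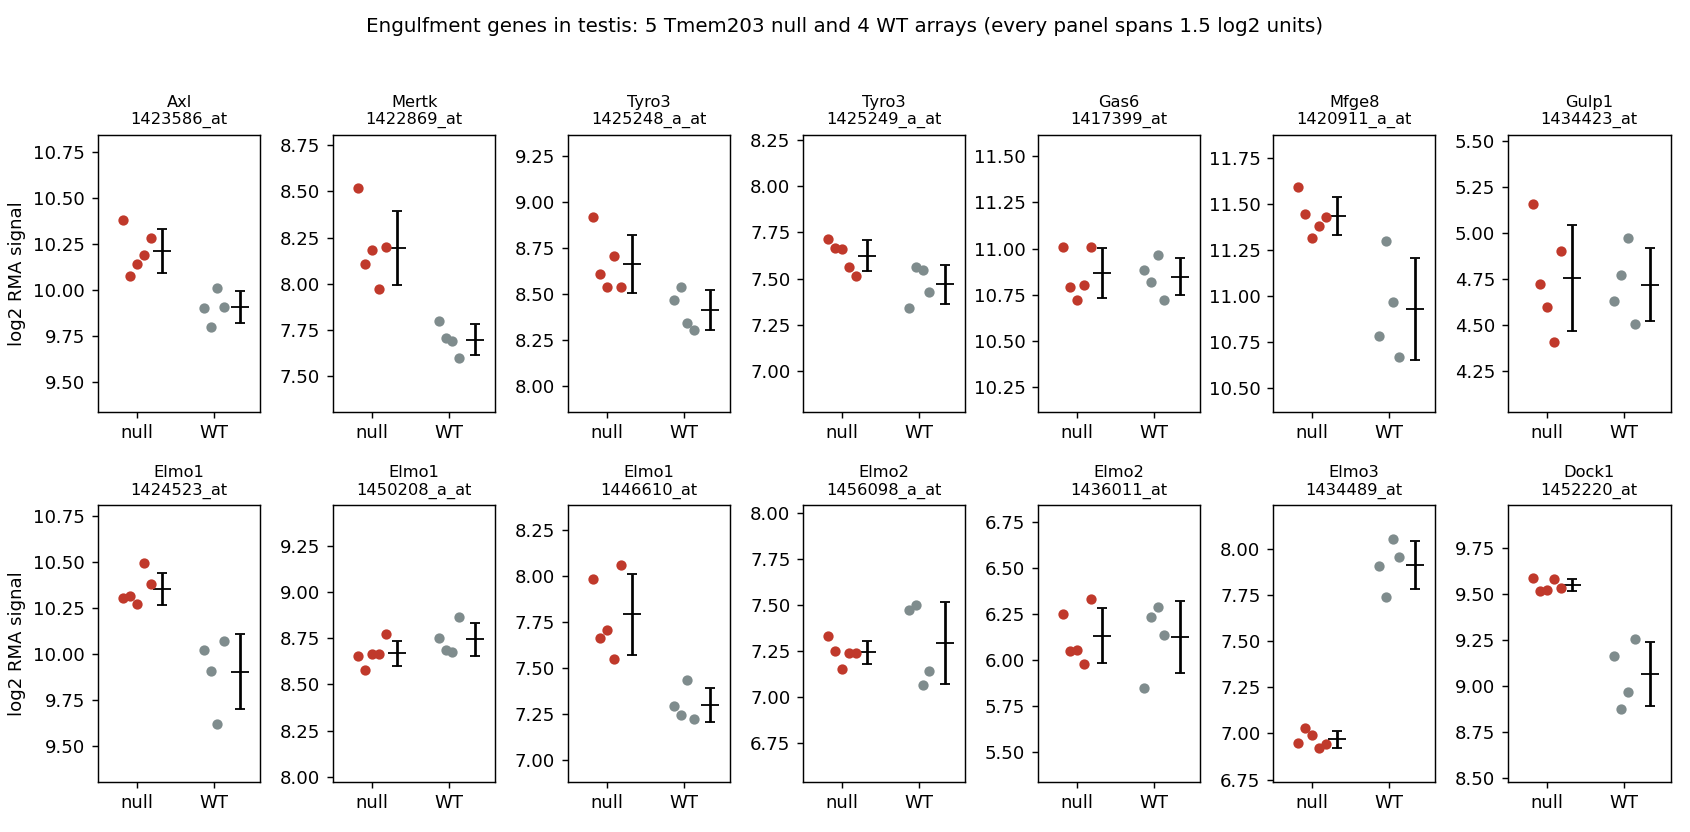
Log2 RMA signal (vertical axis) of each detected probe set in 5 Tmem203 null samples (red, left) and 4 WT samples (grey, right), with the mean and SD of each group in black. Every panel spans 1.5 log2 units. Null samples lie wholly above WT samples for Axl, Mertk, Mfge8, Dock1 and the Elmo1 probe sets 1424523_at and 1446610_at, and wholly below them for Elmo3.

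The sequences just upstream of genes that rose together are shown so that their composition can be compared. RefSeq starts on the GRCm38.p6 assembly were matched for 9 of the 10 genes, Elmo3 being the one not matched, and the 150 bases before the start were read. Mertk, Mfge8, Elmo1 and Dock1 are printed. Axl was higher too, but its window, like those of Tyro3 and Gulp1, falls inside the annotated gene and is not printed. Capitals mark the GC box GGGCGG on either strand, the core motif of Sp/KLF factors, and in Dock1 a pair of such matches overlap.
Mertk, chr2:128698765-128698914, plus strand: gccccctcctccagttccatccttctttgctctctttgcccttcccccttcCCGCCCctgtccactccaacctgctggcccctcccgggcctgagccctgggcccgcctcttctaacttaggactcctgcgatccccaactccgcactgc
Mfge8, chr7:79149061-79149210, minus strand: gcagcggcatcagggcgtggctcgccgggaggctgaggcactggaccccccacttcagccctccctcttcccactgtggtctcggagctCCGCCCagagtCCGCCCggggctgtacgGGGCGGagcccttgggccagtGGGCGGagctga
Elmo1, chr13:20090357-20090506, plus strand, the first of 2 starts: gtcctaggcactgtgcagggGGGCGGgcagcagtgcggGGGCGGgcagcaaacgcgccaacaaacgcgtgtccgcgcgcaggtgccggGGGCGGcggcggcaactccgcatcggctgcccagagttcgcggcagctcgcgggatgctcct
Dock1, chr7:134670537-134670686, plus strand: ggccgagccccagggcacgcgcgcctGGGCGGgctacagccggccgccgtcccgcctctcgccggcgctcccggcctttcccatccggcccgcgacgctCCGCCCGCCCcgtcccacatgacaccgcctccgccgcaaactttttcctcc

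The GC box was found in 28.6% of 32851 upstream windows of this length in the table. Mertk held 1, Mfge8 4, Elmo1 3 and Dock1 3, and Axl, also called higher, held 1. Of the genes that did not pass, Gas6 held 4, Tyro3 3, Elmo2 3 at its first start and Gulp1 0. The further starts of Elmo1 and Elmo2 held 0. The TATA box TATAAA, present in 7.57% of windows, and the core TGACG of cyclic AMP response elements, present in 13.3%, were in none of the member windows. The motif CAAGGTC of the steroidogenic factor NR5A1 occurred in 1.86% of windows and, among the members, once, in Axl. All motifs were searched on both strands, and a match describes letters, not a site of binding.

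The ligands came out differently. Mfge8 is a secreted protein that binds phosphatidylserine on the dying cell and αv integrins on the phagocyte, and Sertoli cells are known to produce it. Its log2 signals were 11.59, 11.45, 11.32, 11.38 and 11.43 in null samples, against 10.79, 11.30, 10.97 and 10.67 in WT samples. The groups did not overlap, but WT replicate 2 lay within 0.02 of the lowest null sample and well above the other WT samples. The means were 11.43 ± 0.10 in null and 10.93 ± 0.27 in WT (SD), a log2 fold change of 0.50 ± 0.12 (SE, limma adjusted p = 0.0278) or 1.42-fold. With 1 array left out at a time the log2 fold change of Mfge8 stayed between 0.42 and 0.63, and the adjusted p from limma was above the threshold without null replicate 1, 2, 4 or 5 (0.0692, 0.0529, 0.0544 and 0.0636) and without WT replicate 1 or 4 (0.0687 and 0.0595). It was smallest, at 0.00577, without WT replicate 2.

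Gas6, the vitamin K-dependent ligand of all TAM receptors, had log2 signals of 11.01, 10.79, 10.72, 10.80 and 11.01 in null samples, against 10.88, 10.82, 10.96 and 10.72 in WT samples. The groups overlapped throughout. The log2 fold change of Gas6 was 0.02, with a 95% interval from -0.16 to 0.19 and a limma adjusted p of 0.911. A change within these bounds was not detectable with this spread. The difference between the changes of Mfge8 and Gas6 was itself compared by taking their log2 difference on each array. That difference was 0.48 larger in null samples (exact permutation p = 0.0159, 0.0265 after Benjamini-Hochberg adjustment over the 10 pairs of probe sets compared within families), although the groups overlapped. The 10 pairs took each gene of a family by its brightest probe set, plus the Elmo1 probe sets among themselves, and were set up after the values had been seen.

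Of the receptors, Mertk had the largest log2 fold change. Mertk is the TAM receptor best known from the retinal pigment epithelium, where it takes up shed photoreceptor tips, and from macrophages. Its log2 signals were 8.52, 8.11, 8.18, 7.97 and 8.20 in null samples, against 7.80, 7.71, 7.69 and 7.59 in WT samples. The lowest null sample lay 0.18 above the highest WT sample, and null replicate 1 stood above the other null samples. The means were 8.19 ± 0.20 in null and 7.70 ± 0.08 in WT (SD), a log2 fold change of 0.50 ± 0.10 (SE, limma adjusted p = 0.0142) or 1.41-fold. Leaving out any of the 9 arrays kept the call for Mertk, with an adjusted p of at most 0.0419 from limma.

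Axl, the receptor with the highest affinity for Gas6, had log2 signals of 10.38, 10.08, 10.14, 10.19 and 10.28 in null samples, against 9.90, 9.80, 10.01 and 9.91 in WT samples. The gap between the groups was 0.06, the narrowest after that of Mfge8. The log2 fold change of Axl was 0.31 ± 0.07 (SE, limma adjusted p = 0.0297), or 1.24-fold. This call rested on most of the arrays. Leaving out null replicate 1, 4 or 5 gave limma adjusted p-values for Axl of 0.0609, 0.0595 and 0.0756, and leaving out WT replicate 1, 2 or 4 gave 0.0624, 0.0879 and 0.0580. The log2 fold change itself stayed between 0.27 and 0.34. The call was also lost after median centring of the arrays (limma adjusted p = 0.0502), and over the 10 settings other than leaving out an array the adjusted p for Axl lay between 0.0161 and 0.115.

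Tyro3, the receptor most studied in the nervous system, was read by a pair of detected probe sets. On the brighter, 1425248_a_at, null samples read 8.92, 8.61, 8.54, 8.71 and 8.54, against 8.47, 8.54, 8.35 and 8.31 in WT samples. The lowest null values of Tyro3 met the highest WT value, and null replicate 1 was again the highest. The log2 fold change of Tyro3 was 0.25, with a 95% interval from 0.05 to 0.44 (limma adjusted p = 0.118), and on 1425249_a_at it was 0.15 (limma adjusted p = 0.193). Neither passed the test after adjustment over all probe sets.

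No pair of the 3 receptors passed the test of a difference between their changes. Between arrays, the change of Axl was 0.19 below that of Mertk on the log2 scale (exact permutation p = 0.0556, 0.0695 adjusted over the 10 pairs), that of Mertk was 0.25 above that of Tyro3 (exact permutation p = 0.0397, adjusted 0.0567), and those of Axl and Tyro3 differed by 0.06 (exact permutation p = 0.587, adjusted 0.652). With 126 arrangements of 5 and 4 samples the smallest two-sided p these tests can give is 0.00794. So the call in Axl and Mertk and its absence in Tyro3 does not show that Tyro3 behaved otherwise.

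**Figure D2:**
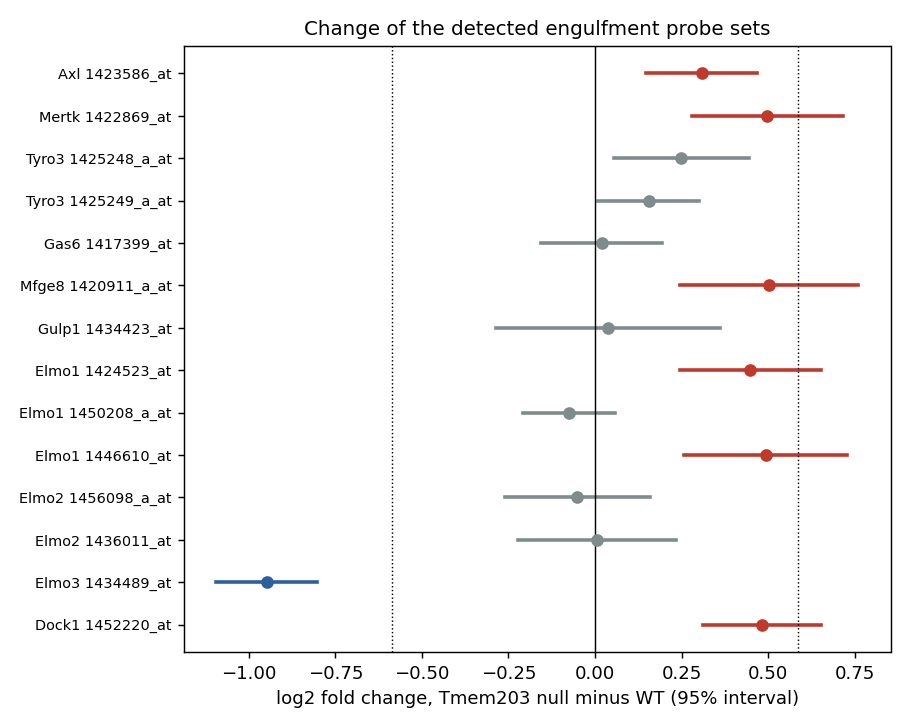
Log2 fold change, Tmem203 null minus WT (horizontal axis), of the 14 detected probe sets, with the 95% interval from limma as a bar. Red marks probe sets called higher, blue lower, grey not passed, and dotted lines stand at 1.5-fold. Elmo3, at -0.95, is the single probe set whose interval lies wholly beyond a dotted line.

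Gulp1 is an adaptor that binds the tails of the engulfment receptors Lrp1 and Stab2. Its brightest probe set exceeded the detection limit on 1 of 9 arrays, with log2 signals of 5.15, 4.72, 4.60, 4.40 and 4.90 in null samples, against 4.63, 4.77, 4.97 and 4.51 in WT samples. A signal this close to the floor of the array could hide a change, and the 95% interval of the log2 fold change of Gulp1 ran from -0.29 to 0.36. Its other probe sets read at most 4.75 on any array.

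Dock1, the exchange factor that loads Rac with GTP once bound by an Elmo protein, had log2 signals of 9.59, 9.52, 9.52, 9.58 and 9.53 in null samples, against 9.16, 8.88, 8.97 and 9.25 in WT samples. The null samples were nearly alike and lay 0.26 or more above every WT sample. The means of Dock1 were 9.55 ± 0.03 in null and 9.07 ± 0.17 in WT (SD), a log2 fold change of 0.48 ± 0.08 (SE, limma adjusted p = 0.00498) or 1.40-fold. Leaving out any 1 array kept the call, with a limma adjusted p of at most 0.0163. After Elmo3, it was the member with the smallest p.

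Elmo1, the best known partner of Dock1, was read by 3 detected probe sets that did not move alike. On the brightest, 1424523_at, null samples read 10.30, 10.31, 10.27, 10.49 and 10.38, against 10.02, 9.91, 9.62 and 10.07 in WT samples. The groups of Elmo1 were 0.20 apart there, and the log2 fold change was 0.45 ± 0.09 (SE, limma adjusted p = 0.0167), or 1.36-fold. The call held with any single array left out, with a limma adjusted p of at most 0.0478.

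On 1446610_at, Elmo1 read 7.98, 7.66, 7.71, 7.55 and 8.06 in null samples, against 7.29, 7.24, 7.43 and 7.23 in WT samples. Here too every null sample was above every WT sample, with a log2 fold change of 0.49 ± 0.11 (SE, limma adjusted p = 0.0207). The limma adjusted p for this probe set of Elmo1 was 0.0503 without null replicate 1, 0.0643 without WT replicate 2 and 0.0509 without WT replicate 4. On 1450208_a_at the samples of Elmo1 overlapped, at 8.65, 8.58, 8.66, 8.67 and 8.78 in null, against 8.75, 8.69, 8.67 and 8.87 in WT. Its log2 fold change was -0.08, with a 95% interval from -0.21 to 0.06 (limma adjusted p = 0.490).

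The gap between the Elmo1 probe sets was larger than the spread between samples. The change on 1424523_at exceeded that on 1450208_a_at by 0.52, and that on 1446610_at exceeded it by 0.57 (exact permutation p = 0.00794 each, the smallest possible, and 0.0159 after adjustment over the 10 pairs). The changes on 1424523_at and 1446610_at differed by -0.05 (exact permutation p = 0.817). RefSeq lists 2 starts for Elmo1, and which transcripts each probe set reads is not given in the sources used here. The mean of the 3 probe sets of Elmo1 had a log2 fold change of 0.29 (limma adjusted p = 0.0085).

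Elmo2, the broadly expressed family member, showed no change on either of its probe sets that passed the test. On the brighter, null samples read 7.33, 7.25, 7.15, 7.24 and 7.24, against 7.47, 7.50, 7.07 and 7.14 in WT samples. The WT samples of Elmo2 lay on both sides of the null samples. The log2 fold changes were -0.05, with a 95% interval from -0.26 to 0.16, and 0.01 on the other probe set, from -0.22 to 0.23.

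Elmo3, the least studied of the family, was the single member called lower and the one with the largest change. Its log2 signals were 6.95, 7.03, 6.99, 6.92 and 6.94 in null samples, against 7.91, 7.74, 8.05 and 7.96 in WT samples. The highest null sample was 0.71 below the lowest WT sample. The means of Elmo3 were 6.97 ± 0.04 in null and 7.92 ± 0.13 in WT (SD), a log2 fold change of -0.95 ± 0.07 (SE, limma adjusted p = 5.6e-05), or 1.93-fold lower in null. Leaving out any 1 array gave a limma adjusted p of at most 4.02e-04.

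Within the family the change of Elmo3 was 1.40 below that of Elmo1 and 0.90 below that of Elmo2 on the log2 scale, and the change of Elmo1 was 0.50 above that of Elmo2 (exact permutation p = 0.00794 and adjusted p = 0.0159 for each). Null samples lay wholly below WT samples for Elmo3 and wholly above them for Elmo1. The p of that pair was therefore fixed by values already given and adds no evidence. The comparisons with Elmo1 read that gene by 1424523_at. On 1450208_a_at its log2 fold change of -0.08 lay near those of Elmo2, and that probe set was not compared with Elmo2 by a test.

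The genes whose 9 array values were most like those of Elmo3, after each was centred on its own mean, were Ptp4a3, Stap2 and Hpd, with root mean square differences of 0.0726, 0.0831 and 0.0862 log2 units among 29237 other probe sets. Ptp4a3 encodes a membrane-anchored phosphatase, Stap2 a signal-transducing adaptor and Hpd an enzyme of tyrosine breakdown. The probe set of Stap2 is of a kind open to cross-hybridization. Ptp4a3 averaged 11.68 ± 0.09 in null and 12.58 ± 0.05 in WT samples, Stap2 9.70 ± 0.06 and 10.65 ± 0.09, and Hpd 5.96 ± 0.08 and 6.82 ± 0.16 in null and WT samples. That their null samples lay below their WT samples follows from the way they were picked.

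**Figure D3:**
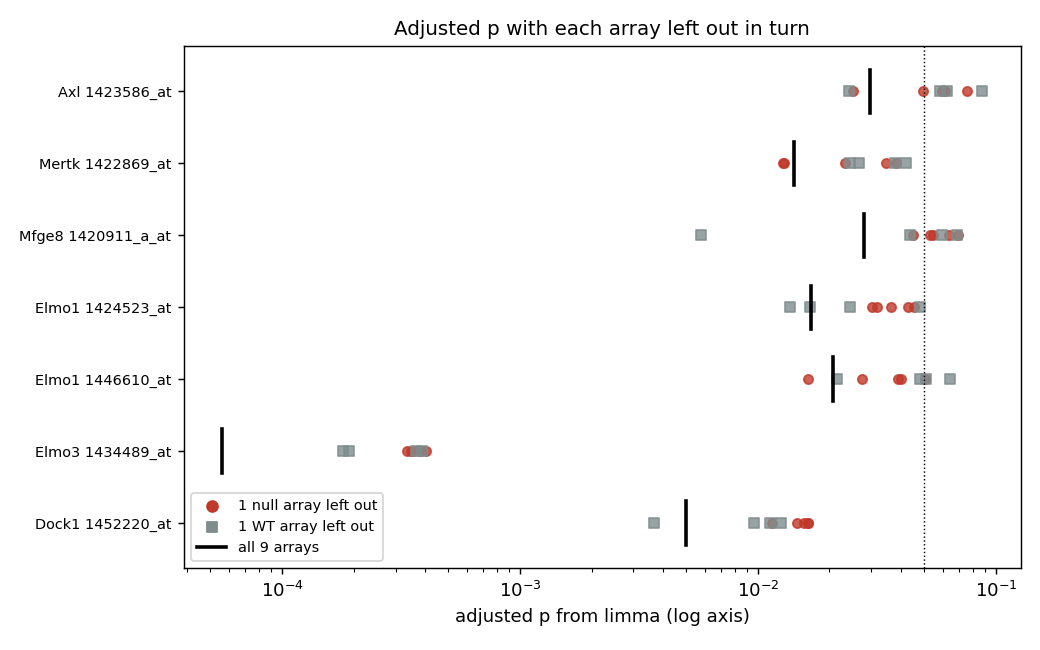
Adjusted p from limma (horizontal, log axis) for the 7 probe sets called with all 9 arrays (black bars) and with each null (red circles) or WT (grey squares) array left out. The dotted line is 0.05. Elmo3, Dock1, Mertk and Elmo1 1424523_at stay left of it in 9 of 9 cases, Axl and Mfge8 in 3, and Elmo1 1446610_at in 6.

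The samples at the edges recurred. Null replicate 1 was the highest null sample in 4 of the 6 probe sets that were higher in null, and WT replicate 4 was the lowest WT sample in 3. Without null replicate 1, or without WT replicate 4, 3 of the 6 probe sets stayed called.

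The wider set of engulfment genes held 97 genes in 5 lists, of which 86 were measured. Of these 19 were higher in null, 1 was lower and 66 did not pass, and the median log2 fold change was 0.08, beside -0.02 over all genes. The shares called over all genes, 6.5% higher and 5.32% lower, are to be set beside these counts and those of each list below. Among the genes that expose or bridge lipids, 3 of 15 were higher in null and none lower. They were Thbs1, a matrix glycoprotein that bridges dying cells to Cd36 (log2 fold change 0.46), Pros1, which encodes protein S, the other TAM ligand (0.41), and Anxa5, which binds phosphatidylserine (0.46). A second probe set of Thbs1 read 0.11 and did not pass. Pros1 read from 12.67 to 12.93 in null samples, against 12.23 to 12.56 in WT samples, so the groups did not overlap, unlike those of Gas6.

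Of the engulfment receptors outside the TAM family, 4 of 21 were higher in null and none lower. Itgav, the αv integrin subunit to which Mfge8 binds, had a log2 fold change of 0.47 (limma adjusted p = 0.00272) on its brightest probe set, from 11.59 to 11.73 in null samples, against 11.02 to 11.34 in WT samples, but -0.10 and -0.25 on others that did not pass. Lrp1, a large scavenger receptor, and Megf10, an engulfment receptor known from astrocytes, had log2 fold changes of 0.43 and 0.57. A second probe set of Lrp1 read 0.06 and did not pass. The scavenger receptor Stab1, named after the values were seen, was the fourth, at 0.34.

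Of the adaptors and activators of Rac, 5 of 19 were higher in null and 1 lower. Tns3, a focal adhesion protein of the tensin family, had the largest log2 fold change among the wider lists, 0.88 ± 0.08 (SE, limma adjusted p = 3.3e-04), with 10.47 to 10.78 in null samples, against 9.61 to 9.95 in WT samples. Dock5, a relative of Dock1, was higher by 0.42 and Wasf2, which links Rac to actin assembly, by 0.30. A second probe set of each did not pass, at 0.35 for Dock5 and 0.29 for Wasf2. The other genes called, named after the values were seen, were Wasl, a nucleator of actin branching, at 0.29, the exchange factor Trio at 0.50 and, lower in null, the exchange factor Vav3 at -0.48. None of the further probe sets of Trio passed, and they read from -0.21 to 0.25. Wasl had another probe set higher, at 0.31, and others that did not pass, at -0.11 and -0.09. A second probe set of Vav3 was lower too, at -0.40, and the other, at -0.29, did not pass. The brightest probe set of Vav3 is of a kind open to cross-hybridization. Rac1 itself had a log2 fold change of -0.01 on its brightest probe set, and on another it was higher in null by 0.38 (limma adjusted p = 0.0361).

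Of the genes of TAM signalling, 3 of 10 were higher in null and none lower, with a median log2 fold change of 0.29. Adam10, a protease that sheds receptor ectodomains, that of Axl among them, was higher by 0.43 on its brightest probe set and did not pass on its others, at 0.55, 0.15 and 0.05. Socs3, a feedback inhibitor of cytokine receptors, was higher by 0.59, with 6.07 to 6.53 in null samples, against 5.50 to 5.90 in WT samples. That probe set is of a kind open to cross-hybridization, and the others of Socs3 did not pass, at 0.59 and 0.30. Grb2, an adaptor of tyrosine kinases, was higher by 0.42 on its brightest probe set and read -0.02 on the other.

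Of the genes of phagosome maturation, 4 of 21 were higher in null and none lower on the brightest probe set, with a median log2 fold change of -0.02. Abca1, which exports cholesterol and is induced in phagocytes that have taken up cells, was higher by 0.86 ± 0.11 (SE, limma adjusted p = 0.00195), with 10.78 to 11.40 in null samples, against 10.08 to 10.30 in WT samples. A second probe set of Abca1 was higher too, at 0.84, and the other, at 0.40, did not pass. Ctsl, a lysosomal protease, was higher by 0.33 but read 0.13 on a probe set that did not pass. Rab7, the GTPase of late endosomes, was higher by 0.23 but read -0.26 on a probe set that did not pass. Lamp2, a lysosomal membrane protein named after the values were seen, had called probe sets in both directions, at 0.26, 0.42 and 0.35 and at -0.31. That at 0.26 is of a kind open to cross-hybridization.

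**Figure D4:**
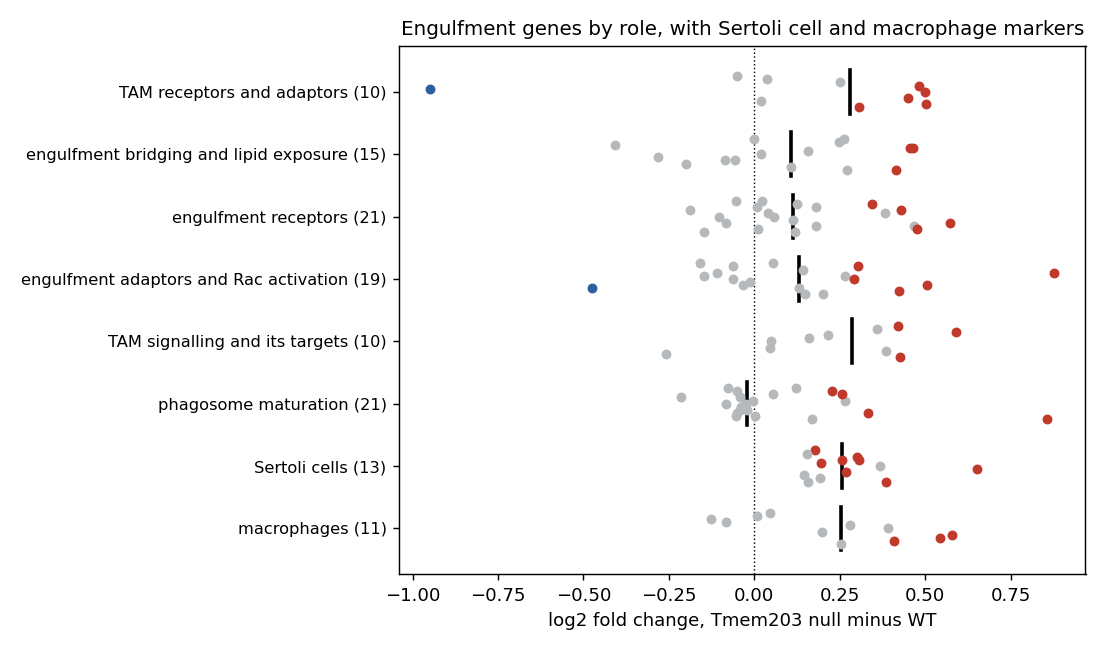
Log2 fold change, Tmem203 null minus WT (horizontal axis), of each measured gene (points) in the 10 genes described, the 5 wider engulfment lists and the markers of Sertoli cells and macrophages, with the number of genes in brackets. Red points were called higher, blue lower and grey did not pass, and black bars are medians, from -0.02 in phagosome maturation to 0.29 in TAM signalling.

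Of the marker lists of somatic cells, that of Sertoli cells alone had a mean that was higher in every null sample than in any WT sample. Over all genes 6.5% were called higher and 5.32% lower, to be set beside the counts of every marker list. Sertoli cell markers had 8 of 13 genes higher in null and none lower, among them Shbg at 0.65 and the transcription factor Sox9 at 0.38. Their mean log2 signal ranged from 11.40 to 11.55 in null samples, against 11.09 to 11.30 in WT samples, a difference of 0.27 (exact permutation p = 0.00794, the smallest possible), and null replicate 1 was again the highest. All markers of this list with a detected single-gene probe set were above 0 in log2 fold change, and Trf had no such probe set. The list was chosen with earlier results of these data known, so the p of its mean is no independent test.

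Macrophage markers had 3 of 11 genes higher in null and none lower: Mrc1 at 0.41, Cd163 at 0.58 and, named after the values were seen, Cx3cr1 at 0.54. Their mean ranged from 8.82 to 9.04 in null samples, against 8.47 to 8.93 in WT samples, a difference of 0.23 (exact permutation p = 0.0397). Without null replicate 1, that p was 0.0857, and it was between 0.0536 and 0.107 in each leave-out except that of WT replicate 1, and 0.0635 after median centring of the arrays. Leydig cell markers had 2 of 6 higher in null, Hsd3b1 at 0.64 and Hsd17b3 at 0.45, and their mean ranged from 11.83 to 12.18 in null samples, against 11.49 to 11.98 in WT samples (exact permutation p = 0.0635).

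Germ cell markers showed no called gene in either direction among 6 for spermatogonia, 8 for spermatocytes, 7 for round spermatids and 11 for elongating spermatids. The mean over elongating spermatid markers, the protamines among them, lay between 14.09 and 14.14 in null samples, against 14.11 and 14.15 in WT samples. Whether signals this high could still show a loss of spermatids was not tested. By flow cytometry of testicular cells from older null mice, the study reported a large reduction of condensed haploid cells. The means of the 4 germ cell lists differed, null minus WT, by 0.09, -0.01, -0.05 and -0.02 on the log2 scale, and none passed the exact permutation test (p = 0.127, 0.825, 0.0635 and 0.167). After median centring the round and elongating spermatid means were lower in null by 0.08 and 0.05 (exact permutation p = 0.00794 and 0.0317). Markers of endothelium had 2 of 8 genes lower, Egfl7 and Vwf, and those of peritubular cells 1 of 6 higher, Smtn. The means of the endothelium and peritubular lists each differed by -0.01, null minus WT (exact permutation p = 0.786 and 0.929).

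Set against the Sertoli cell marker mean of the same array, the log2 difference between null and WT was 0.23 for Mfge8, 0.22 for Mertk, 0.21 for Dock1, 0.17 and 0.22 for the higher Elmo1 probe sets and 0.03 for Axl, with overlap between the groups in all of these. Elmo3 was lower by 1.22 against that mean, Gas6 by 0.25 and Elmo1 1450208_a_at by 0.35, with all null samples below all WT samples. Against the macrophage marker mean, Elmo3 was lower by 1.17, again without overlap, and every other member overlapped. These differences are given without a test, and the part of cell type shares in the results was not tested.

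**Figure D5:**
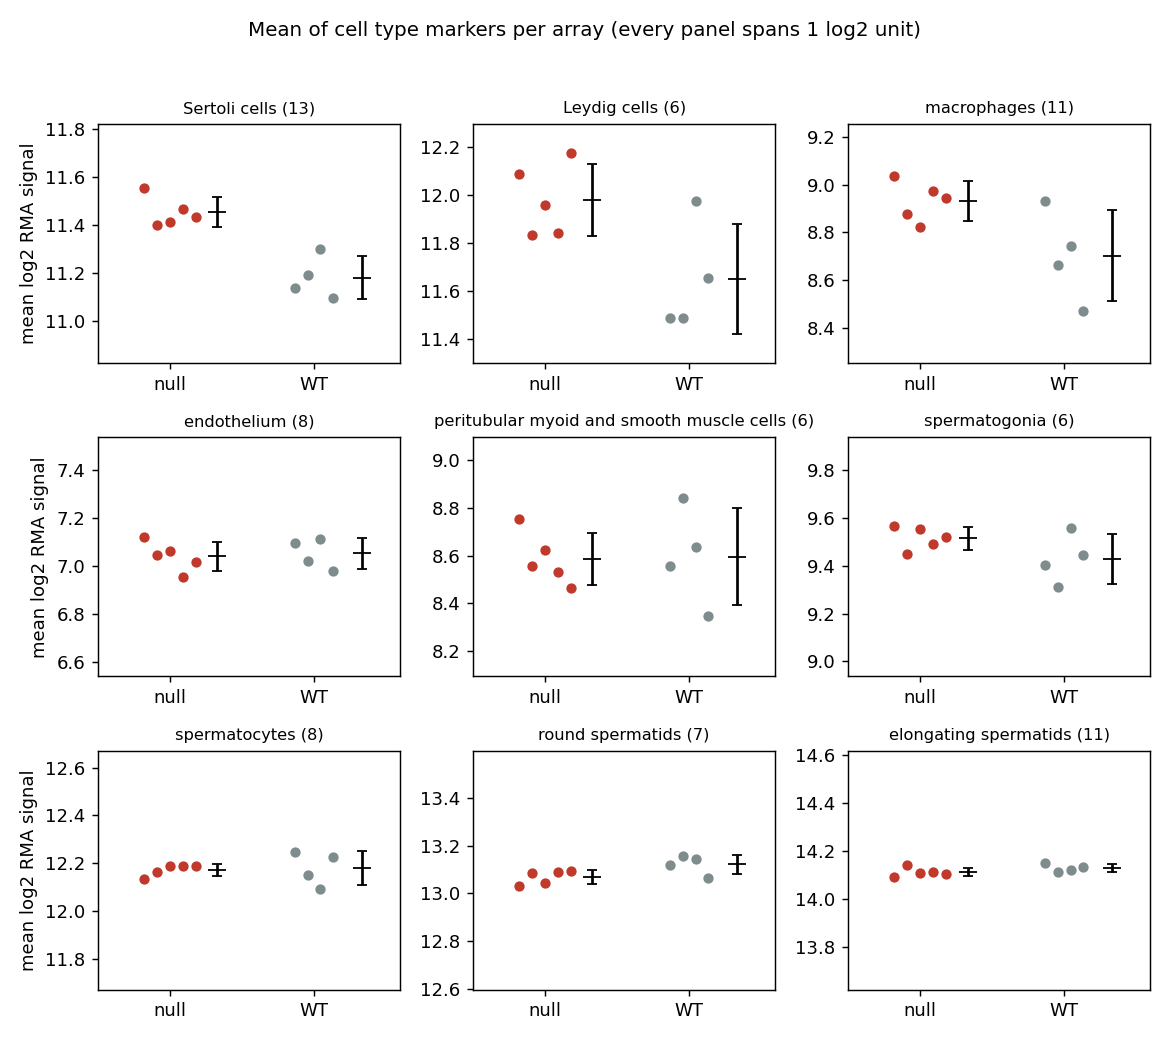
Mean log2 RMA signal (vertical axis) of the markers of 9 cell types in 5 Tmem203 null samples (red, left) and 4 WT samples (grey, right), with the group mean and SD in black and the number of markers in brackets. Every panel spans 1 log2 unit. The Sertoli cell panel is the one in which null samples lie wholly above WT samples, by a mean difference of 0.27.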

How the data were processed

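Testis RNA of 5 Tmem203 null and 4 WT samples was hybridised to Affymetrix mouse expression arrays. The authors checked the scans with arrayQualityMetrics and applied RMA (background adjustment, quantile normalization, summary of probe sets), and deposited log2 signals, all 9 arrays kept. The submitters' processing notes name limma without a version. From these values the contrast of null minus WT was fitted per probe set in limma 3.58.1 under R 4.3.3 (lmFit, eBayes, no covariate), with Benjamini-Hochberg adjustment across 45037 probe sets. The 64 control probe sets were left out. Genes came from the platform annotation, of whose 34945 single-gene probe sets 34741 matched RefSeq (GRCm38.p6) by Entrez identifier. The members and lists were chosen with earlier results of these data known, and Tmem203, Elmo3, Tns3, Abca1, Shbg, Hsd3b1, Ptp4a3, Stap2 and Hpd stand in published tables of the study. Named were all members, the 3 genes of each wider list and up to 2 of each marker list with the smallest p, and the 3 genes most like Elmo3. Other names are marked. The number of arrays limits the precision. The procedure was tested on simulated data. Python 3.11.15 and matplotlib 3.10.9 were used for joins and drawing. Alternatives covered scaling, variance model, array weights, filters, choice of probe set, replicate block, each array left out, and the t-test of the methods' general statistics.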

Additional observations from a re-analysis of the deposited data

How the results depend on the processing

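No called member probe set changed sign. For single member probe sets, 249 repeats under another setting stayed on their side of the threshold and 30 lost the call. In 15 of the 249, values near 0 that had not passed, of Gas6, Elmo2 and Gulp1, changed sign. With the replicate block 3 member probe sets (3 genes: Mertk, Elmo1 and Dock1) were higher in null, against 6 (5 genes) without it, and of the wider genes 8 were higher and 0 lower, against 19 and 1. Over all detected single-gene probe sets the block gave 593 higher and 419 lower, against 1667 and 1237. The sample labels do not state that equal numbers pair the samples, and null replicate 5 has no partner. That array therefore adds nothing to the contrast under the block, and the member log2 fold changes equal those without null replicate 5. With null replicate 5 left out and no block, 4 member probe sets were higher in null. Over all detected single-gene probe sets 900 were then higher and 745 lower. Deviations from the mean of the own group correlated between -0.073 and 0.105 in same-numbered null and WT samples. So few pairs cannot decide whether the numbers pair the samples. At 1.5-fold, 0 member probe sets or genes were higher in null, and of the wider genes 3 were higher and 0 lower, beside 286 higher and 211 lower over all detected probe sets. The methods used limma for the arrays and name a t-test in their general statistics. Under that t-test with Benjamini-Hochberg adjustment 1 member probe set (1 gene), Dock1, stayed higher, and over all probe sets 898 were higher and 913 lower. At the unadjusted threshold of the general statistics, a setting added after the data had been seen, there were 1920 and 1902. The count of wider genes lower in null, 1 here, was 2 under median centring, a further quantile normalization, the fit over detected probe sets and both forms of the t-test, 3 under a log2 signal of 6 on at least 4 arrays and with the probe set of smallest p, 5 with the mean of each gene's probe sets, and 0 without probe sets open to cross-hybridization. Leaving out 1 array gave 3 to 6 member probe sets and 3 to 5 genes higher, 1 lower, and 12 to 19 wider genes higher and 1 to 2 lower. The wider count was 12 without null replicate 1 or 5 or WT replicate 2. Over all detected probe sets the count higher in null then ranged from 900 (without null replicate 5) to 1956 (without WT replicate 3), and was 949 without null replicate 1 and 956 without WT replicate 2. Median centring, after which the median log2 fold change over all probe sets was -0.0459 in place of -0.0145, turned the split of all calls to 1239 higher and 1550 lower. In the remaining cases the cause was not tested. Background and scan date could not be varied without the scans. Gulp1, at the detection limit, could hide a change.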
